A study of Mus musculus with 4 samples.

Results

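The library of C3H10T1/2 cells carrying an edit in Prdx1 (PRDX1MT) was set against the library of the unedited parental cells (WT) across all genes. These are 2 of the 4 RNA-seq libraries deposited, chosen by their labels alone. C3H10T1/2 is an established line of multipotent mesenchymal cells from mouse embryos, grown here in serum-containing medium. By its title PRDX1MT carries a CRISPR change that hits the acceptor end of Prdx1 intron 5, and its genotype label reads PRDX1-KO. WT is labelled as unedited, with the genotype WT. The other 2 libraries are clones 1 and 5 of a DNMT3A/B double knockout (DKO), named here only to place the levels. The library name of PRDX1MT carries a number of the kind given to the DKO clones, but the labels do not say whether it is a single clone, nor whether the DKO clones carry the Prdx1 edit. There was 1 library per genotype compared, so no p-value is given. Every interval is a 95% exact interval of the counting, covers counting error only, and says nothing of the spread between cultures or clones. The labels describe no molecular identifiers, so PCR copies of a molecule may be counted more than once and the intervals may be too narrow.

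Peroxiredoxins are thiol enzymes that reduce hydrogen peroxide and are themselves recharged by thioredoxin. Prdx1 is the abundant cytosolic member, and it also passes oxidation on to signalling proteins. Mesenchymal cells such as these can be turned towards cartilage, bone, fat and muscle, and they make the collagens, elastic fibres and proteoglycans of connective tissue. The series design text gives the purpose of the edit as the study of how Mmachc, the cobalamin gene next to Prdx1, becomes silenced; the genes beyond that neighbourhood are described here.

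The edited site lies at the end of intron 5, between exons 5 and 6 of 6 in the transcript Prdx1-204 of GENCODE M21 (GRCm38/mm10, chromosome 4, plus strand). That intron runs from position 116693848 to 116699170, over 5323 bases, and the stop codon starts at 116699254 in exon 6. The junction that splicing of this intron makes is printed because the edited acceptor serves it. It holds the last 30 bases of exon 5 in lower case and the first 30 bases of exon 6 in capitals, all of them coding.
Prdx1 exon 5 to exon 6 junction (chr4:116693818-116699200, plus strand, intron 5 left out): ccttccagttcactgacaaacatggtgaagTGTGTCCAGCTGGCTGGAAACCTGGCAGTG

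Prdx1 (ENSMUSG00000028691, chromosome 4, 116685544 to 116700822) had 31.1 CPM in PRDX1MT and 399 CPM in WT, with 392 and 332 CPM in DKO clones 1 and 5. CPM are the authors' counts per 1000000, with library sizes adjusted by TMM scaling. Prdx1 was 12.8-fold lower in PRDX1MT (11.9 to 13.8), which fits the genotype label. In bulk RNA, fewer cells with a transcript and less of it per cell cannot be told apart. Of its neighbours, Ccdc163 was 7.59-fold higher in PRDX1MT (6.6 to 8.76), and Mmachc had 16.8 CPM in PRDX1MT and 11.1 CPM in WT, a log2 ratio of 0.60.

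The counts summed to 27570136 in PRDX1MT and 37685798 in WT, and 3 counts were worth 0.1205 and 0.0729 CPM. Small, ribosomal and mitochondrial RNA genes took 23.63% of the counts in PRDX1MT and 13.30% in WT, and 8.24% and 13.90% in the DKO clones. All 11 mesenchymal markers had reads in every library, with summed levels of 20354 CPM in PRDX1MT and 11353 CPM in WT. Without the collagen gene Col1a1 the other 10 summed to 1945 and 1783 CPM. Thy1, Pdgfra and Vcam1 were lower in PRDX1MT, and the surface antigen Thy1 had 0.884 CPM in PRDX1MT and 28.9 CPM in WT. Thy1 was as low in DKO clones 1 and 5, at 0.757 and 1.38 CPM. Summed endothelial markers had 18.2 and 6.87 CPM in PRDX1MT and WT, of which the receptor Tek made up 16.4 and 5.78 CPM. Summed epithelial markers had 1.81 and 1.82 CPM, haematopoietic markers 8.52 and 9.5 CPM, and neural markers 5.5 and 17.8 CPM, mostly Stmn2 in WT. Epcam, Tie1, Cd3e and Snap25 were at 0 reads in both libraries.

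Of 54532 genes, 12693 had at least 100 reads in the 2 libraries together and were examined. A gene passed the size rule when its log2 ratio of PRDX1MT over WT (prior count 2) was at least 1 in size, a 2-fold difference, and its counting interval left out 0. By this rule 920 genes rose in PRDX1MT (7.25% of those examined) and 961 fell (7.57%), together 14.8%. These shares are the background for the TMM calls of every gene list below. The median log2 ratio was -0.04, with quartiles at -0.44 and 0.36. At 4-fold or more, 159 genes were higher (1.25%) and 238 lower (1.88%), so the larger differences leaned to the lower side. Scaling by total counts in place of TMM moved the median of all genes by -0.27 and the split to 544 higher and 1734 lower of the 12693. This scaling shifted log2 ratios by nearly the same amount throughout. A list median that changed sign with it thus stayed at about the same distance from the median of all genes. Calls given below with total counts are to be read against 544 and 1734 of 12693. Where a list is given without them, its calls may have changed as well. With small, ribosomal and mitochondrial RNA genes removed before TMM, 915 were higher and 972 lower. The higher genes were 48.9% of all calls with TMM and 23.9% with total counts.

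**Figure D1:**
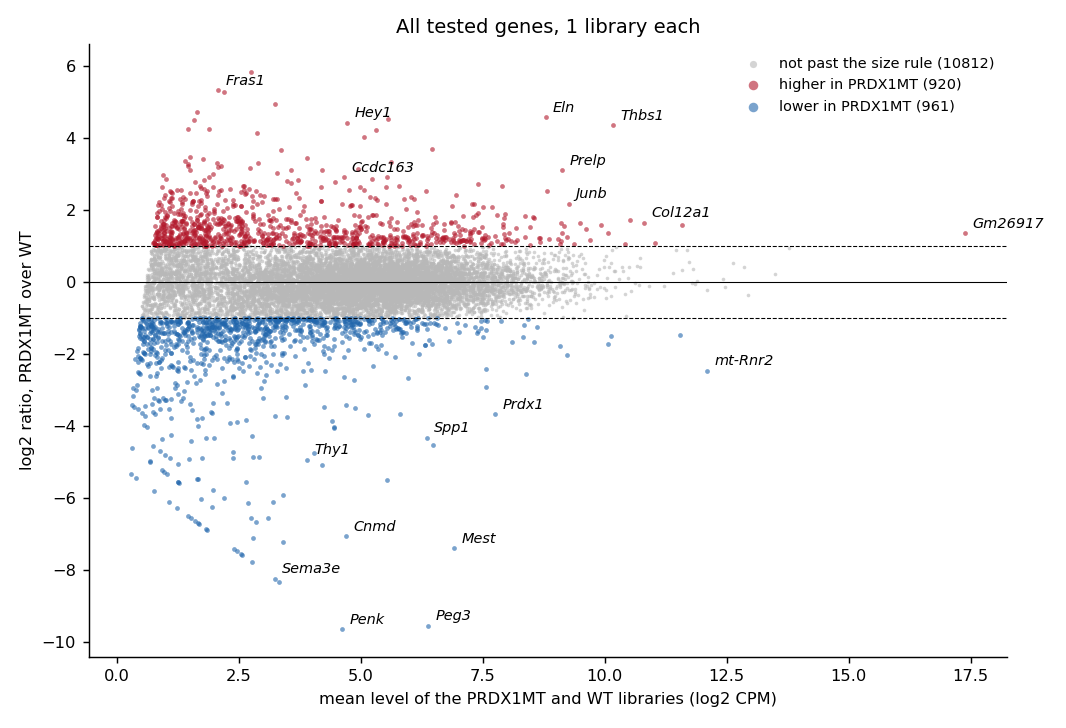
Each point is 1 of 12693 genes, with its mean level in the PRDX1MT and WT libraries on the x axis (log2 CPM) and its log2 ratio of PRDX1MT over WT on the y axis. Dashed lines mark a log2 ratio of 1 in either direction. The lower genes reach a log2 ratio of -9.64 (Penk). The higher genes reach 5.84 (Gm49410, not protein coding), and Fras1, the largest rise among protein-coding genes, stands at 5.33.

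The 15 protein-coding genes with the largest rises in PRDX1MT had log2 ratios of 5.33 (Fras1) to 3.33 (Dhrs3). They are given in that order, save that Ppfia4 (4.51) is named before Eln (4.58). Fras1, a basement membrane protein, had 207 reads in PRDX1MT and 6 in WT, 57.1-fold higher (25.8 to 157), and at most 0.109 CPM in the DKO clones. Tagln3, of the transgelin family, and Ppfia4, of the liprin family, were also low in WT, with 6.07 and 5.78 CPM in PRDX1MT and 0.17 and 0.194 CPM in WT. Eln (ENSMUSG00000029675, chromosome 5, 134702593 to 134747323), the gene of elastin, had 850 CPM in PRDX1MT and 35.5 CPM in WT, 23.9-fold higher (22.7 to 25.3). The DKO clones had still more Eln, 4271 and 2005 CPM, so here WT was the low library. Hey1 (ENSMUSG00000040289, chromosome 3, 8663359 to 8667256), a repressor induced by Notch, had 50.4 CPM in PRDX1MT and 2.28 CPM in WT, 22.1-fold higher (17.9 to 27.5). The DKO clones lay between, at 11.6 and 7.88 CPM. Thbs1 (ENSMUSG00000040152, chromosome 2, 118111876 to 118127133), which encodes the matrix glycoprotein thrombospondin, had 2193 CPM in PRDX1MT and 107 CPM in WT, 20.5-fold higher (19.8 to 21.1). It was also above both DKO clones, at 219 and 422 CPM. Gm13889 had 5.3 CPM in PRDX1MT and 0.219 CPM in WT, and Fxyd6, a regulator of the sodium pump, had 7.07 and 0.316 CPM. Other genes overlap 20.8% of the exons of Gm13889. Pappa2, a protease that cleaves IGF-binding proteins, had 76 CPM in PRDX1MT and 3.98 CPM in WT. Apol8, of the apolipoprotein L family, had 63.5 CPM in PRDX1MT and 3.84 CPM in WT, and DKO clone 1 was high as well, at 44.2 CPM. Csrnp1, an AXIN1-induced nuclear protein, had 163 CPM in PRDX1MT and 12.4 CPM in WT. After these came Gm10800, Bicdl2 and Pld6, with log2 ratios of 3.66, 3.44 and 3.41, and Dhrs3, which reduces retinal, with 88.8 CPM in PRDX1MT and 8.79 CPM in WT. Dhrs3 had 142 and 64.1 CPM in the DKO clones, also above WT.

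Per kilobase of exon, protein-coding genes past the rule were ranked by their difference in level. The largest gain among them was of Acta2, smooth muscle actin, at 1022 CPM per kb in PRDX1MT and 313 in WT. Next to it in size were Thbs1 (361 and 17.6 CPM per kb) and Junb, an AP-1 subunit (435 and 96.5 CPM per kb). Among these 10 genes were also the linker histone gene Hist1h1c, the matrix protein gene Prelp, the YAP target Ccn1, Ier2, Klf4, the BMP target Id1 and Igfbp7. The largest losses per kilobase among protein-coding genes were led by 5 mitochondrially encoded genes. After these came, in order, Laptm4a, of the lysosome membrane (131 CPM per kb in PRDX1MT and 310 in WT), Prdx1 itself, the small proteoglycan gene Ogn, the growth factor gene Ptn, and Spp1, the bone matrix protein osteopontin (4.66 CPM per kb in PRDX1MT and 94.7 in WT).

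The falls included genes without a read in PRDX1MT. In all, 50 of the 11548 genes with at least 100 reads in WT (0.433%) had 3 reads or fewer in PRDX1MT, 20 of them 0. None of the 10605 genes with at least 100 reads in PRDX1MT had 3 or fewer in WT. These limits are raw reads at unequal depth. In PRDX1MT 100 reads were worth 4.02 CPM and 3 counts 0.1205 CPM, and in WT 2.43 and 0.0729 CPM. A rise thus needed a larger fold than a fall to be counted, and the 2 directions are not compared on equal terms. Of these 50, 47 were protein coding, 7 lay on the X chromosome and 7 on chromosome 6. Of all 12693 genes examined, 11262 were protein coding, 392 lay on the X chromosome and 642 on chromosome 6. Among the 50, 27 also had at most 3 reads in both DKO clones, so their low level was not particular to PRDX1MT. The other 23 had over 3 reads in a DKO clone. Penk (ENSMUSG00000045573, chromosome 4, 4133531 to 4138819), the precursor of enkephalin peptides, had 0 reads in PRDX1MT and 2030 in WT, at least 409-fold lower against a floor of 3 counts. Penk was low in the DKO clones too, with 39 and 17 reads. Peg3 (ENSMUSG00000002265, chromosome 7, 6703892 to 6730431), an imprinted zinc finger gene, had 4 reads in PRDX1MT and 6876 in WT, 1039-fold lower (406 to 3815), and 0 in both DKO clones.

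Sema3e, a secreted guidance protein, had 0 reads in PRDX1MT and 775 in WT (at least 156-fold lower), and 0 in both DKO clones. Arhgef5, a guanine nucleotide exchange factor, had 0 and 822 reads in PRDX1MT and WT, and 0 in both DKO clones. The adjoining cell cycle inhibitor genes Cdkn2a and Cdkn2b had 0 reads each in PRDX1MT against 434 and 482 in WT, and none in the DKO clones. Ptprz1, Sv2c, Pde3b and the DNA repair gene Mgmt likewise had 0 reads in PRDX1MT and in both DKO clones, against 260 to 453 in WT. For these genes WT was the single library with reads. Others were near 0 in PRDX1MT alone. Casd1, a sialic acid acetyltransferase gene, had 0 reads in PRDX1MT, 560 in WT and 290 and 214 in the DKO clones. Stmn2, which binds tubulin, had 0 reads in PRDX1MT, 487 in WT and 306 and 1833 in the DKO clones. Rgs4, an inhibitor of G protein signals, had 1 read in PRDX1MT and 574 in WT, 347-fold lower (62 to 13730), and 1694 and 219 reads in the DKO clones. Phyh, which starts the breakdown of branched fatty acids, had 0 reads in PRDX1MT, 249 in WT and 232 and 40 in the DKO clones.

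**Figure D2:**
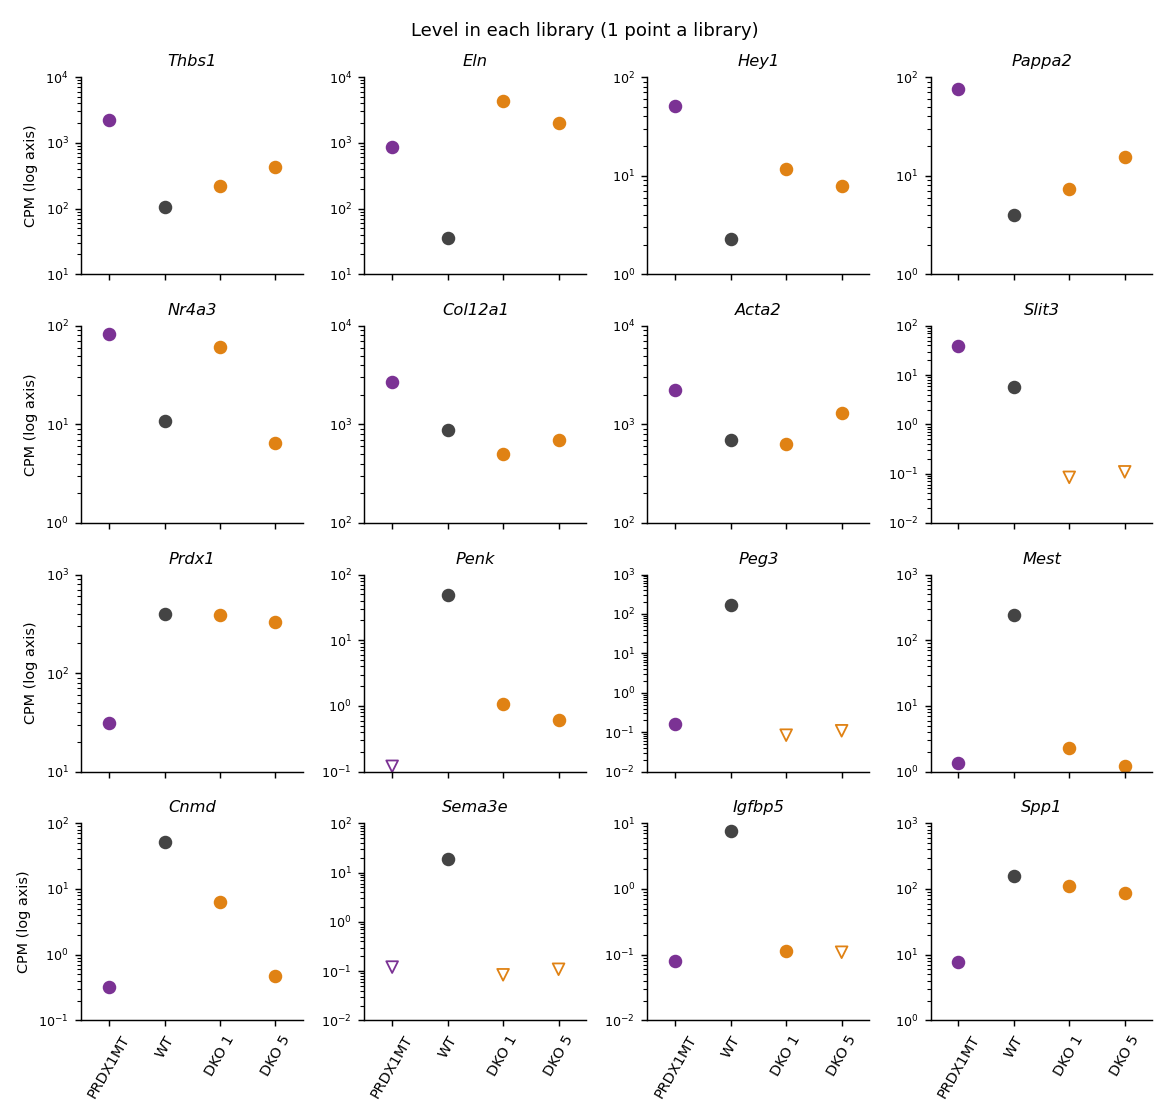
Level of 16 genes in each library, in CPM on log axes that differ between panels, with 1 point per library (PRDX1MT, WT, then DKO clones 1 and 5). Open triangles mark 0 reads and stand at the CPM of 3 counts. Thbs1, Pappa2 and Col12a1 are highest in PRDX1MT, Eln is higher in all 3 edited libraries than in WT, and Prdx1 and Spp1 are low in PRDX1MT alone.

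Immediate-early genes, which cells switch on within minutes of growth factor or stress signals, held the largest share of rises among the lists with 15 or more genes examined. Of 35 members, 24 rose and 0 fell, with a median log2 ratio of 1.31. Their summed level was 10085 CPM in PRDX1MT and 3891 CPM in WT. Nr4a3, an orphan nuclear receptor, had 81.9 CPM in PRDX1MT and 10.7 CPM in WT, 7.68-fold higher (6.93 to 8.54). Spry4, a feedback inhibitor of receptor tyrosine kinases, had 17.5 CPM in PRDX1MT and 2.09 CPM in WT, and Junb had 1002 and 222 CPM. The AP-1 genes Fosb and Fos had 1089 and 727 CPM in PRDX1MT, against 350 CPM each in WT. Members that did not pass included Jun (log2 ratio 0.69), Myc (0.49) and Dusp6 (-0.58). The level of this list also varied between the DKO clones, which had 14908 and 4165 CPM summed and medians of 1.52 and 0.20 over WT. By summed level these 2 clones thus differed by more than PRDX1MT and WT did. With total counts 18 of the 35 rose.

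**Figure D3:**
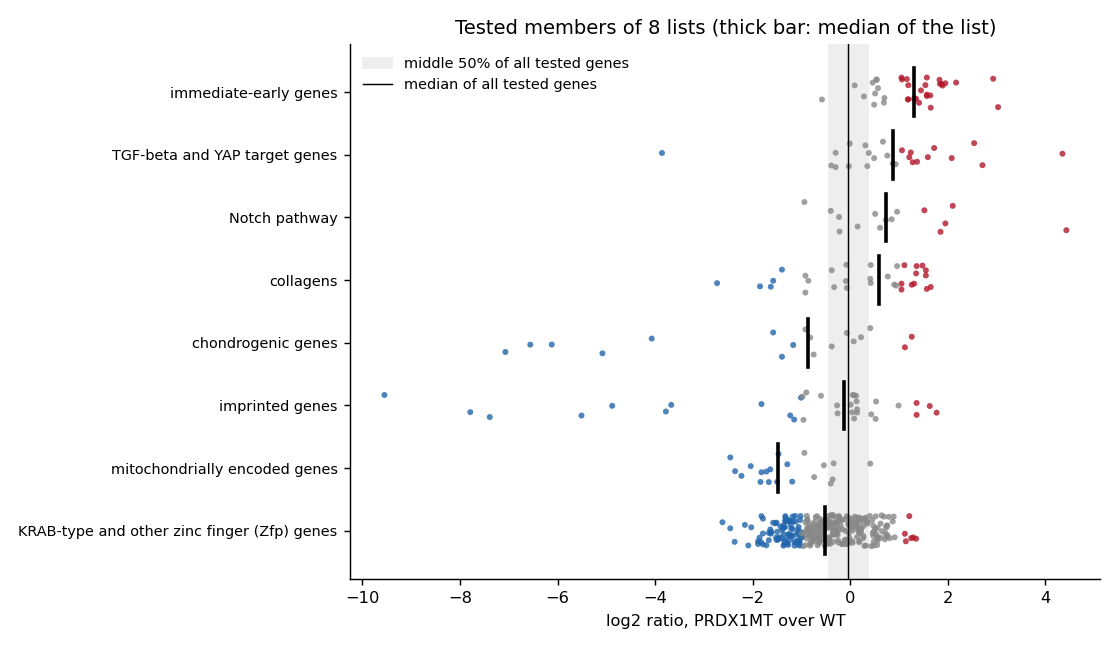
Log2 ratios of PRDX1MT over WT (x axis) for the genes examined in 8 lists (rows), 1 point per gene, red where higher and blue where lower by the size rule. Thick bars mark each list's median, and the grey band the middle 50% of all genes. The immediate-early median stands at 1.31 and the mitochondrial median at -1.49.

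Since most of these genes rose, their promoters were searched for the CArG box, the site of serum response factor, and for TGACGTCA, the palindromic cAMP response element. Windows of 300 bases, 250 before and 50 after the RefSeq start (GRCm38.p6), were at hand for 26 of the 35 members (74.3%), too few to read a share for the list. On either strand, 3 of the 26 held a CArG box (Egr2, Dusp5 and Zfp36) and 2 held TGACGTCA (Btg2 and Dusp1). The CArG box was in 1.63% and TGACGTCA in 1.79% of all 32851 windows. A match describes these letters only. Of the promoters shown, the first has 2 CArG boxes side by side, the second 1, and the third TGACGTCA, each in capitals.
Dusp5 (chr19:53528895-53529194, plus strand): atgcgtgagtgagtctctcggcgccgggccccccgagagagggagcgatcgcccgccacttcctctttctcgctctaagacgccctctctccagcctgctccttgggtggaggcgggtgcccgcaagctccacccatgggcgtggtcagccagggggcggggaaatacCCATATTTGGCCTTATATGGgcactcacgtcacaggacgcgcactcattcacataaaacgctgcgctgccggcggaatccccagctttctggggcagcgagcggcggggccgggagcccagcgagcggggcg
Zfp36 (chr7:28379179-28379478, minus strand): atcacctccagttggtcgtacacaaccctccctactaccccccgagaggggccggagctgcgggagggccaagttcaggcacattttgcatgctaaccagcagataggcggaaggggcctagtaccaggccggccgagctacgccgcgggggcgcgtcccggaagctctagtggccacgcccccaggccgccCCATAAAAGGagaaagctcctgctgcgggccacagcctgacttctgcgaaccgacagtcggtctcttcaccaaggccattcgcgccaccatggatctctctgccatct
Dusp1 (chr17:26508423-26508722, minus strand): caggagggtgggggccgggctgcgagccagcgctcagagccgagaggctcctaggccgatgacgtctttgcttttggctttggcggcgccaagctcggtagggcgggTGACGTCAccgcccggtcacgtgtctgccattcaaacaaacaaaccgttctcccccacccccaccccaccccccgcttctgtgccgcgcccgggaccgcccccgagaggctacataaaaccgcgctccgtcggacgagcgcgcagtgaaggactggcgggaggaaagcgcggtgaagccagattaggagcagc
Dusp5 and Dusp1, phosphatases that switch off MAP kinases, had 113 and 513 CPM in PRDX1MT and 29.3 and 144 CPM in WT. Zfp36, which marks mRNAs for decay, had 375 CPM in PRDX1MT and 147 CPM in WT.

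Targets of TGF-beta and of YAP, the effector of the Hippo pathway, rose in number. Of 25 members, 11 rose and 1 fell, with a median log2 ratio of 0.87. DKO clones 1 and 5 had medians of 0.67 and 0.38 over the same WT library. Smad7, which dampens TGF-beta signals, had 292 CPM in PRDX1MT and 44.5 CPM in WT, 6.56-fold higher (6.23 to 6.91). The DKO clones had 218 and 249 CPM of Smad7, so here too WT was the low library. Ccn2, connective tissue growth factor, had 292 CPM in PRDX1MT and 69.3 CPM in WT; other genes overlap 23.2% of its exons. The member that fell was Tgfbi, a secreted adhesion protein, with 2.69 CPM in PRDX1MT and 40 CPM in WT, and 0.701 and 0.145 CPM in the DKO clones. The ligand genes Tgfb1, Tgfb2 and Tgfb3 had log2 ratios of 0.93, 0.49 and 0.67, and the receptor genes Tgfbr1 and Tgfbr2 -0.30 and -0.03, none past the rule. With total counts 8 rose and 1 fell.

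Collagen genes moved both ways. Of 32, 12 rose and 5 fell, with a median log2 ratio of 0.60, and their summed level was 44912 CPM in PRDX1MT and 26391 CPM in WT. Col12a1, which sits on the surface of fibrils, had 2721 CPM in PRDX1MT and 869 CPM in WT, 3.13-fold higher (3.09 to 3.17). The basement membrane chains Col4a1 and Col4a2 had 1534 and 1150 CPM in PRDX1MT and 599 and 413 CPM in WT. The fibril-forming Col1a1, the most abundant of them, had 18410 CPM in PRDX1MT and 9570 CPM in WT, a log2 ratio of 0.94 just under the rule. Those that fell were Col8a1, Col28a1, Col18a1 and the cartilage chains Col9a1 and Col9a3. Col8a1, a network-forming chain, had 0.803 CPM in PRDX1MT and 5.68 CPM in WT. With total counts 8 rose and 8 fell.

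Other matrix genes were also split. Among 52 genes of elastic fibres, proteoglycans and matrix glycoproteins, 9 rose and 7 fell, with a median log2 ratio of 0.14. With total counts the median turned to -0.13, and 7 rose and 10 fell. Prelp, a leucine-rich proteoglycan of basement membranes, had 1000 CPM in PRDX1MT and 117 CPM in WT, 8.57-fold higher (8.31 to 8.84). The DKO clones had 587 and 637 CPM of Prelp, also above WT. Acan, the large proteoglycan of cartilage, had 3 reads in PRDX1MT and 704 in WT, 142-fold lower (48.3 to 690), and 4 and 0 reads in the DKO clones. Spp1 had 7.67 CPM in PRDX1MT and 156 CPM in WT, 20.3-fold lower (17.6 to 23.6), and 112 and 87.9 CPM in the DKO clones. Other genes overlap 18.8% of the exon length of Spp1. Efemp1, a fibulin, had 3 and 223 reads in PRDX1MT and WT. Of 24 laminin and integrin genes, 5 rose and 2 fell (5 and 3 with total counts). Itga11, the integrin chain that binds fibrillar collagen, had 94.9 CPM in PRDX1MT and 14.8 CPM in WT, and Lama2 had 0.442 and 4.66 CPM. Of 36 matrix proteases and inhibitors, 7 rose and 2 fell (4 and 3 with total counts). Plat, tissue plasminogen activator, had 3.49 CPM in PRDX1MT and 18.6 CPM in WT.

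Among genes of the lineages that these cells can enter, the cartilage list fell most. Of 18 chondrogenic genes, 8 fell and 2 rose, with a median log2 ratio of -0.87. The list was lower still in DKO clones 1 and 5, with medians of -1.54 and -1.87 over WT, so the fall was not particular to PRDX1MT. These comparisons share the WT library. Sox5 and Sox6, partners of Sox9 in cartilage, had 0.201 and 2.41 CPM in PRDX1MT and 18.2 and 41.4 CPM in WT. Cnmd, chondromodulin, had 0.321 CPM in PRDX1MT and 51.4 CPM in WT, 160-fold lower (81 to 371), with 6.42 and 0.472 CPM in the DKO clones. Cytl1, a secreted cartilage protein, had 1 CPM in PRDX1MT and 35.9 CPM in WT. The master regulator Sox9 and the cartilage collagen Col2a1 did not pass, with log2 ratios of 0.07 and 0.41. With total counts 11 fell and 0 rose.

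Of 18 osteogenic genes, 3 rose and 3 fell (1 and 3 with total counts). Bmp4, a bone-inducing ligand, had 246 CPM in PRDX1MT and 70 CPM in WT, while Enpp1 and Phex, which set mineral balance, had 5.22 and 0.281 CPM in PRDX1MT and 25.1 and 3.11 CPM in WT. Of 15 adipogenic genes, Cebpb and Cebpa rose and Pparg fell; with total counts 2 rose and 3 fell. These 3 transcription factors of the fat programme had 109, 59.7 and 16.6 CPM in PRDX1MT and 21.2, 16.4 and 33.8 CPM in WT. Other genes overlap 20.7% of the exons of Cebpb. Of 8 skeletal muscle genes with enough reads, 5 rose and 0 fell, from low levels. Acta1, skeletal actin, had 7.03 CPM in PRDX1MT and 0.826 CPM in WT, and Ttn, the giant sarcomere protein, had 10.7 and 3.08 CPM. Of 20 smooth muscle contractile genes, 3 rose and 2 fell (2 and 2 with total counts), with a median of 0.68. Acta2 had 2245 CPM in PRDX1MT and 687 CPM in WT, 3.27-fold higher (3.22 to 3.32), and Synpo2, an actin-binding protein, had 0.442 and 4.32 CPM.

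**Figure D4:**
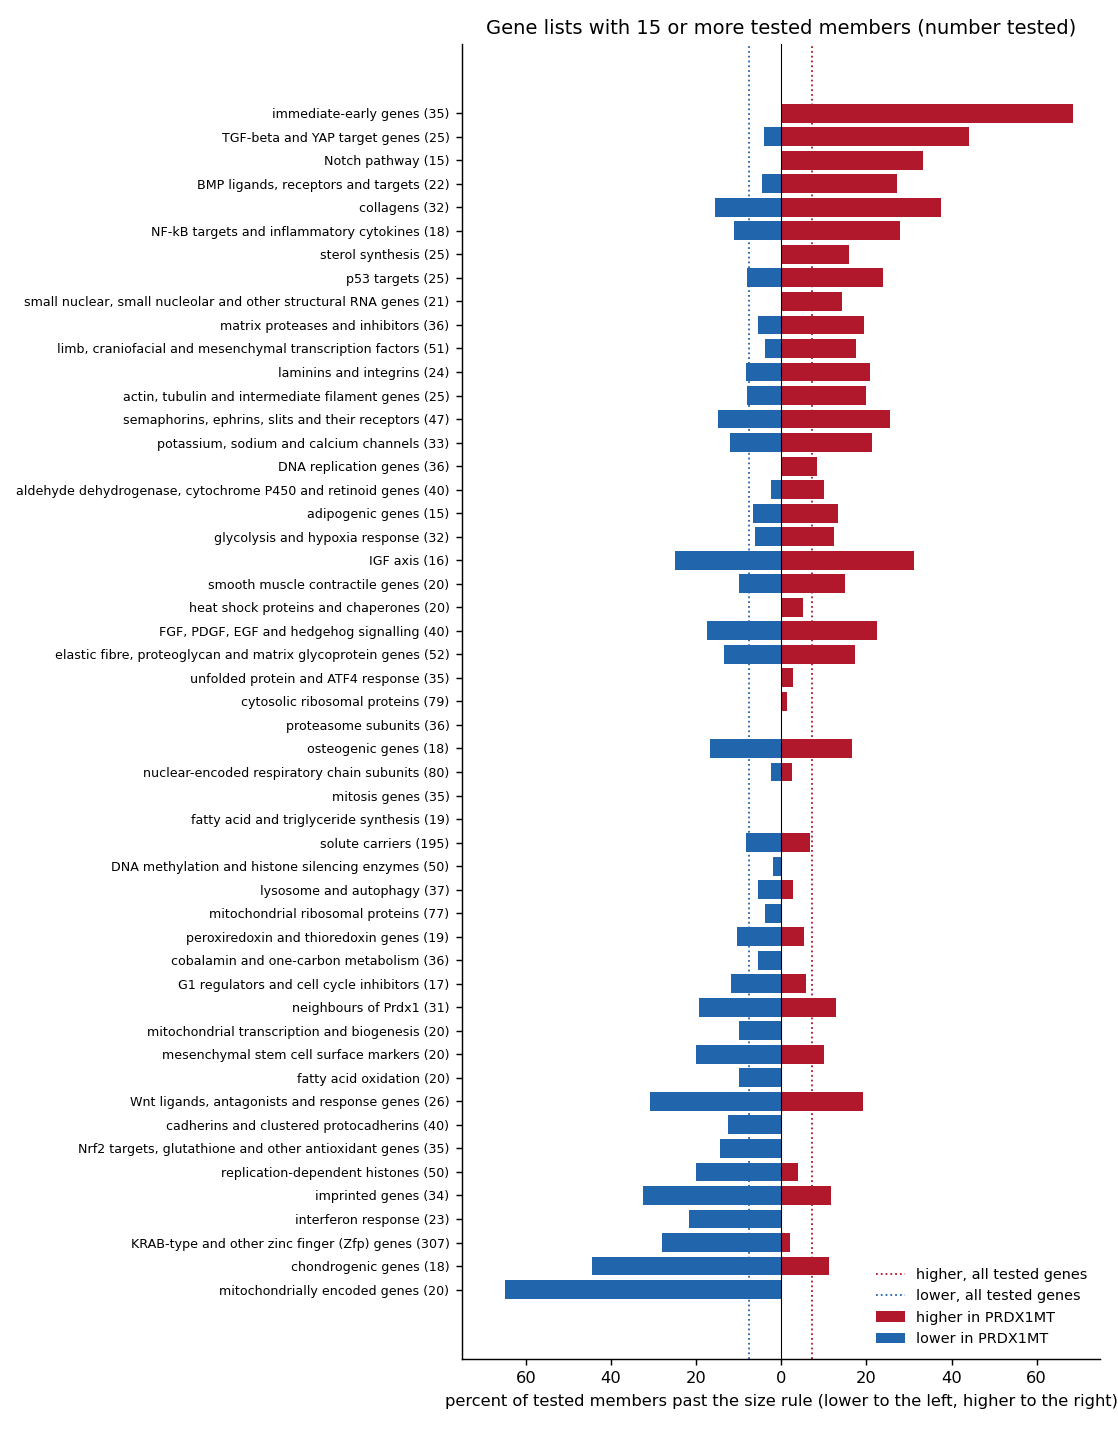
Share of the genes examined in each list that were higher (red, right) or lower (blue, left) in PRDX1MT by the size rule, in percent, for the lists with 15 or more genes examined, whose number stands in brackets. Dotted lines mark the shares over all genes, 7.25% and 7.57%. Immediate-early genes reach 68.6% to the right and mitochondrially encoded genes 65% to the left.

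In the Notch pathway, by which neighbouring cells signal through ligands of the Jagged and Delta kinds, 5 of 15 genes rose and 0 fell. The median log2 ratio was 0.73, and total counts gave 5 that rose and 1 that fell. DKO clones 1 and 5 had medians of 0.58 and 0.21 over the same WT library. The ligand gene Jag1 had 345 CPM in PRDX1MT and 95.8 CPM in WT, and the target Hey2 had 8.44 and 1.92 CPM. The DKO clones had 284 and 538 CPM of Jag1, and 4.85 and 5.99 CPM of Hey2, all above WT. Receptors did not pass, with log2 ratios of 0.51 for Notch1, 0.15 for Notch2 and 0.73 for Notch3. Of 22 genes of BMP and activin signalling, 6 rose and 1 fell. Inhbb, an activin subunit, had 22.9 CPM in PRDX1MT and 3.18 CPM in WT. Fst, which sequesters activin, had 79.1 and 12.7 CPM, and Smad6, an inhibitor of BMP signals, had 255 and 56.9 CPM. The DKO clones were above WT for Fst (35.5 and 46.5 CPM) and Smad6 (167 and 182 CPM). For Inhbb they were below WT, at 0.196 and 1.45 CPM. Grem1, a BMP antagonist, was the one that fell, with 38.6 CPM in PRDX1MT and 91.6 CPM in WT.

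Of 26 Wnt genes, 8 fell and 5 rose (8 and 3 with total counts). Several of those that fell encode secreted Wnt-binding antagonists. Frzb had 3.09 CPM in PRDX1MT and 35.1 CPM in WT, 11.3-fold lower (9.02 to 14.5), and Sfrp2 had 6.87 and 43.5 CPM. The DKO clones had 1.4 and 0 CPM of Frzb, and 143 and 9.04 CPM of Sfrp2. The ligand gene Wnt5b had 0.522 CPM in PRDX1MT and 7.21 CPM in WT, while the receptor gene Ror2 rose to 19 CPM in PRDX1MT, against 6.1 CPM in WT. The receptors Fzd5 and Fzd7 also rose (log2 ratios of 1.40 and 1.06), and Fzd4 fell (-1.34).

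Growth factor genes were split. Of 40 genes of FGF, PDGF, EGF and hedgehog signalling, 9 rose and 7 fell, a balance that total counts turned to 5 and 9. The ligands Fgf18 and Hbegf had 7.59 and 65.9 CPM in PRDX1MT and 0.704 and 9.03 CPM in WT. Pdgfb, another ligand, had 54.3 CPM in PRDX1MT and 8.72 CPM in WT, while the receptor gene Pdgfra had 103 and 250 CPM. Hgf, hepatocyte growth factor, had 4.34 CPM in PRDX1MT and 47.3 CPM in WT, 10.9-fold lower (8.98 to 13.4). In the IGF axis, 5 of 16 genes rose and 4 fell (4 and 4 with total counts). The ligand gene Igf1 had 17.1 CPM in PRDX1MT and 108 CPM in WT, 6.33-fold lower (5.73 to 7), and the binding protein gene Igfbp5 had 2 and 319 reads, 96.4-fold lower (26.5 to 800). The DKO clones had 153 and 25.6 CPM of Igf1, and 4 and 0 reads of Igfbp5. The proteases Pappa2 and Pappa, the receptor substrates Irs1 and Irs2 and the binding protein Igfbp7 rose, while Htra1 and Igf2bp3 fell (log2 ratios of -2.56 and -1.35). Other genes overlap 30.9% of the exons of Irs1.

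Guidance genes showed shares above the background in both directions. Of 47 semaphorins, ephrins, slits and their receptors, 12 rose and 7 fell, with a median log2 ratio of 0.21. With total counts the median turned to -0.06, and 7 rose and 8 fell. Slit3 had 39 CPM in PRDX1MT and 5.66 CPM in WT, 6.89-fold higher (5.96 to 7.98), and 0 reads in both DKO clones. Slit2 had 570 CPM in PRDX1MT and 164 CPM in WT, while Robo1, a slit receptor, had 0 and 236 reads. Robo1 had 0 and 1 reads in DKO clones 1 and 5. Sema3d had 0.603 CPM in PRDX1MT and 13 CPM in WT. Of 33 channel genes, 7 rose and 4 fell (6 and 6 with total counts). Kcnf1, a modifier of potassium channels, had 21.3 CPM in PRDX1MT and 2.43 CPM in WT, and Cacna1h, a calcium channel subunit, had 0.522 and 4.69 CPM. Of 51 transcription factors of limb, face and mesenchyme, 9 rose and 2 fell, with a median of 0.16. Total counts turned the median to -0.12 and the balance to 3 that rose and 9 that fell. Irx3 had 22.7 CPM in PRDX1MT and 6.68 CPM in WT, and Shox2 had 2.45 and 7.36 CPM.

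Imprinted genes, which are expressed from 1 parental allele, held some of the deepest falls. Of 34, 11 fell and 4 rose (14 and 4 with total counts), with a median log2 ratio of -0.13. Mest, a hydrolase gene, had 1.37 CPM in PRDX1MT and 240 CPM in WT, 176-fold lower (126 to 254), and 2.3 and 1.2 CPM in the DKO clones. Other genes overlap 23.1% of its exons. The non-coding Rian, Mirg and Meg3, neighbours on chromosome 12, had 1.93, 0.281 and 8.03 CPM in PRDX1MT and 90.9, 10.1 and 103 CPM in WT. Rian had 3 and 0 reads and Mirg 4 and 0 reads in DKO clones 1 and 5, so these falls were not particular to PRDX1MT. Gnas, the stimulatory G protein subunit, had 76.5 CPM in PRDX1MT and 22.4 CPM in WT, 3.42-fold higher (3.16 to 3.7).

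None of the other peroxiredoxins passed the rule. Prdx2, Prdx3, Prdx4, Prdx5 and Prdx6 had log2 ratios of -0.01, -0.39, -0.28, 0.17 and 0.31. In the list of 19 peroxiredoxin and thioredoxin genes, Prdx1 and Txnip fell and Glrx5 rose. Txnip, which binds and inhibits thioredoxin, had 18.4 CPM in PRDX1MT and 73 CPM in WT, 3.97-fold lower (3.6 to 4.39). Other genes overlap 19.4% of its exons. Glrx5, a mitochondrial glutaredoxin, had 61.3 CPM in PRDX1MT and 27.5 CPM in WT. Of 35 targets of Nrf2 and other antioxidant genes, 5 fell and 0 rose (9 and 0 with total counts). Their median log2 ratio was -0.38. Nqo1, a quinone reductase, had 41.5 CPM in PRDX1MT and 126 CPM in WT, 3.03-fold lower (2.83 to 3.24), and 64.9 and 39 CPM in the DKO clones. The glutathione transferases Gstm1 and Gstt1 had 30.7 and 4.34 CPM in PRDX1MT and 82.6 and 13.6 CPM in WT. Hmox1, Gclm and Gclc did not pass, with log2 ratios of 0.32, -0.01 and -0.10.

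RNA encoded in mitochondria was lower in PRDX1MT. Of 20 such genes, 13 fell and 0 rose, with a median log2 ratio of -1.49, and their summed level was 5750 CPM in PRDX1MT and 19047 CPM in WT. The ribosomal RNA gene mt-Rnr2 had 1346 CPM in PRDX1MT and 7400 CPM in WT, 5.5-fold lower (5.44 to 5.56). The cytochrome oxidase subunit mt-Co1 had 1577 CPM in PRDX1MT and 4365 CPM in WT, 2.77-fold lower (2.74 to 2.8). The DKO clones had 20022 and 8790 CPM summed, so the level also differed 2-fold and more between them. Nuclear genes for the same organelle moved little. Of 80 nuclear-encoded respiratory chain genes, 2 rose and 2 fell (median -0.16), against 2 and 8 with total counts. Of 77 mitochondrial ribosomal protein genes, 0 rose and 3 fell (median -0.18), against 0 and 7 with total counts. Of 20 genes of mitochondrial transcription and biogenesis, 0 rose and 2 fell. Cox7a1 and Cox4i2, tissue-restricted oxidase subunits, were the 2 respiratory chain genes that rose. They had 3.82 and 3.25 CPM in PRDX1MT and 0.923 and 0.85 CPM in WT.

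Of 21 small nuclear, nucleolar and other structural RNA genes, 3 rose and 0 fell (2 and 1 with total counts). Gm26917, annotated as a long non-coding RNA gene, had 246577 CPM in PRDX1MT and 96529 CPM in WT, 2.55-fold higher (2.55 to 2.56), and 52433 and 123085 CPM in the DKO clones. It ends at position 39846341 of chromosome 17, and the ribosomal RNA gene CT010467.1 starts at 39846353. Gm26917 was counted among the small, ribosomal and mitochondrial RNA genes, and held 6137966 of the 27570136 counts in PRDX1MT. Whether its reads come from ribosomal RNA was not tested. The RNA gene Rn7s6 and the small nucleolar RNA gene Snord17 had 54.8 and 27.5 CPM in PRDX1MT and 24.1 and 10.5 CPM in WT. The part of such RNA in the differences of other genes was not tested beyond the scaling that removed it.

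Zinc finger genes fell in number. Of 307 Zfp genes, 86 fell (28%) and 6 rose (121 and 2 with total counts). Their median log2 ratio was -0.52. Many encode KRAB repressors, which recruit silencing machinery to DNA. Zfp873 had 1.41 CPM in PRDX1MT and 8.96 CPM in WT, 6.37-fold lower (4.5 to 9.29), and Zfp518a had 2.93 and 16.4 CPM. Their summed level was 7615 CPM in PRDX1MT and 7769 CPM in WT. The median Zfp log2 ratio over WT was -0.37 and -0.38 in DKO clones 1 and 5, while their summed levels were 8821 and 7137 CPM. These comparisons share the WT library. Of 50 genes of DNA methylation and histone silencing, 0 rose and 1 fell (0 and 6 with total counts). The 1 that fell was Mbd4, a repair enzyme, with 2.25 CPM in PRDX1MT and 5.44 CPM in WT.

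Cell cycle genes were taken by group. Of 36 DNA replication genes, 3 rose (8.33%, near the background of 7.25%) and 0 fell (median 0.33). Total counts gave 2 that rose and 0 that fell, with a median of 0.05. Largest of the 3 rises was the origin licensing factor Cdt1, with 75.1 CPM in PRDX1MT and 26.9 CPM in WT. Another was Fen1, with 84.2% of its exons overlapped by other genes. None of 35 mitosis genes passed (median -0.28). Of 50 replication-dependent histone genes, 10 fell (20%, above the background of 7.57%) and 2 rose (median -0.40). Total counts gave 14 that fell and 2 that rose. Hist4h4 had 7.51 CPM in PRDX1MT and 50.2 CPM in WT. Beside Cdkn2a and Cdkn2b, Cdkn1a, the p21 inhibitor, had 305 CPM in PRDX1MT and 126 CPM in WT, 2.42-fold higher (2.33 to 2.5). Of 25 p53 targets, 6 rose (24%) and 2 fell, with a median of 0.15. With total counts the median turned to -0.13, and 4 rose and 2 fell. The stress gene Gadd45b and the death gene Bbc3 had 62.1 and 36.5 CPM in PRDX1MT and 16.9 and 14.6 CPM in WT, while Perp had 0.321 and 10.1 CPM. In DKO clones 1 and 5 Gadd45b had 77.5 and 25.7 CPM, Bbc3 29.7 and 10.9, and Perp 0.196 and 0.0726.

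Inflammatory genes were divided. Of 18 NF-kB targets and cytokines, 5 rose and 2 fell (median 0.48), but 3 rose and 3 fell with total counts (median 0.20). The feedback inhibitors Tnfaip3 and Nfkbia had 30 and 143 CPM in PRDX1MT and 6.29 and 41 CPM in WT, and Il1rl1, the receptor of interleukin 33, had 1.73 and 13.8 CPM. Of 23 interferon response genes, 5 fell and 0 rose (median -0.39), against 9 and 0 with total counts. Ifih1, a sensor of viral RNA, had 1 read in PRDX1MT and 101 in WT, and Ifit1 had 1.45 and 5.49 CPM. Of 13 complement genes, 4 fell and 2 rose (5 and 1 with total counts). C3, the central component, had 2.17 CPM in PRDX1MT and 8.82 CPM in WT, and Clu, clusterin, had 65.7 and 13 CPM.

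In lipid and energy metabolism, 4 of 25 sterol synthesis and uptake genes rose and 0 fell, with a median of 0.19. With total counts the median turned to -0.08 and 1 rose. Mvd, an enzyme of the mevalonate pathway, had 85.8 CPM in PRDX1MT and 40 CPM in WT, 2.15-fold higher (2.01 to 2.29), and Tm7sf2, a sterol reductase gene, had 48.1 and 23.2 CPM. None of 19 fatty acid and triglyceride synthesis genes passed, against 3 that fell with total counts. Of 20 fatty acid oxidation genes, 2 fell, against 6 with total counts. Pdk4, a kinase that shuts glucose carbon out of mitochondria, had 2.49 CPM in PRDX1MT and 41.5 CPM in WT, 16.7-fold lower (12.9 to 21.8). Of 32 glycolysis and hypoxia genes, 4 rose and 2 fell (3 and 3 with total counts). Hk2, a hexokinase, had 81.7 CPM in PRDX1MT and 25.5 CPM in WT, and Vegfa, the vascular growth factor, had 142 and 44.5 CPM. Housekeeping groups lay below the background share of calls. None of 36 proteasome genes passed (median -0.37), and of 79 cytosolic ribosomal protein genes 1 rose (Rps10, with 28.7% of its exons overlapped by other genes). With total counts 3 and 5 of these fell. Of 35 genes of the unfolded protein and ATF4 response 1 rose (Atf3), and of 20 heat shock genes 1 rose (Cryab, with 208 CPM in PRDX1MT and 39 CPM in WT).

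The remaining groups varied in their share of calls. Of 195 solute carriers, 13 rose and 16 fell (9 and 18 with total counts). Slc35f1 had 0.0402 CPM in PRDX1MT and 4.74 CPM in WT. Of 40 cadherins and protocadherins, 0 rose and 5 fell, among them Cdh19 with 1 read in PRDX1MT and 166 in WT. Of 25 actin, tubulin and intermediate filament genes, 5 rose and 2 fell (4 and 2 with total counts), and Tuba4a had 2.13 and 12.6 CPM in PRDX1MT and WT. Other genes overlap 37.3% of the exons of Tuba4a. Of 40 aldehyde dehydrogenase, cytochrome P450 and retinoid genes, 4 rose and 1 fell, with a median of 0.09. With total counts the median turned to -0.19, and 3 rose and 5 fell. Aldh1a3, which makes retinoic acid, had 8.68 CPM in PRDX1MT and 1.72 CPM in WT. Of 37 lysosome and autophagy genes, 1 rose and 2 fell, and the protease gene Ctsf had 0.0402 CPM in PRDX1MT, 3.89 CPM in WT and 14.8 and 2.98 CPM in the DKO clones. Of 20 mesenchymal surface markers, 2 rose and 4 fell. Mcam, an adhesion molecule, had 10.9 CPM in PRDX1MT and 2.99 CPM in WT, and Anpep, a peptidase, had 20.4 and 55.6 CPM. Of 36 genes of cobalamin and single-carbon metabolism, 0 rose and 2 fell (the transcription factor gene Zfp143 and the folate transporter gene Slc46a1). Of 8 Hox genes, 0 rose and 2 fell (Hoxa2 and Hoxa10), and of 7 chemokines 1 rose and 2 fell (0 and 2 with total counts). Of 31 neighbours of Prdx1, 4 rose and 6 fell, Prdx1 included (3 and 9 with total counts).

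Among miRNA genes with 100 reads or more the largest fall was of Mir351, with 2 reads in PRDX1MT and 150 in WT, 45.3-fold lower (12.3 to 378), and 34 and 38 reads in the DKO clones. Its neighbour Mir322 had 7 reads in PRDX1MT and 136 in WT, and 15 and 29 in the DKO clones. Mir23a, Mir27a and Mir23b were higher, with 8.92, 6.63 and 4.14 CPM in PRDX1MT and 2.96, 2.57 and 0.777 CPM in WT. These are reads over hairpin genes in a library of longer RNA, not levels of the mature miRNAs. The mature sequences (RefSeq, GRCm38.p6) are given because the seed, bases 2 to 8 in capitals, sets which mRNAs a miRNA can pair with. The 4 seeds differ from each other.
mmu-miR-322-5p (chrX:53054306-53054327, minus strand): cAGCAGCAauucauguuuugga
mmu-miR-351-5p (chrX:53053315-53053338, minus strand): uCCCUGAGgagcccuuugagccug
mmu-miR-23a-3p (chr8:84208563-84208583, plus strand): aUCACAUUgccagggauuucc
mmu-miR-27a-3p (chr8:84208727-84208747, plus strand): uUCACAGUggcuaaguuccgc

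The share of genes past the rule differed between the nuclear chromosomes. On chromosome 6, 87 of 642 genes fell (13.6%) and 26 rose, with a median log2 ratio of -0.28. On the X chromosome, 52 of 392 fell (13.3%) and 13 rose, with a median of -0.30. Chromosome 9 leaned the other way, with 94 of 729 genes higher (12.9%), 33 lower and a median of 0.18. With total counts this median was -0.10, still above the -0.31 of all genes. Chromosome 8 had 61 of 701 higher, 36 lower and a median of 0.15 (-0.12 with total counts). Chromosome copy number was not measured here. Protein-coding genes were also split into 5 groups by the length of the gene on the chromosome. The shortest (under 8.78 kb) had 216 higher and 118 lower of 2253, with a median of 0.11 (-0.16 with total counts). The longest (over 71 kb) had 139 higher and 201 lower of 2253, with a median of -0.13. Antisense transcripts had 56 of 268 higher (20.9%) and 22 lower. The strand setting of the counting is not given in the sources used here, so reads of an antisense gene and its partner may not be separated.

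**Figure D5:**
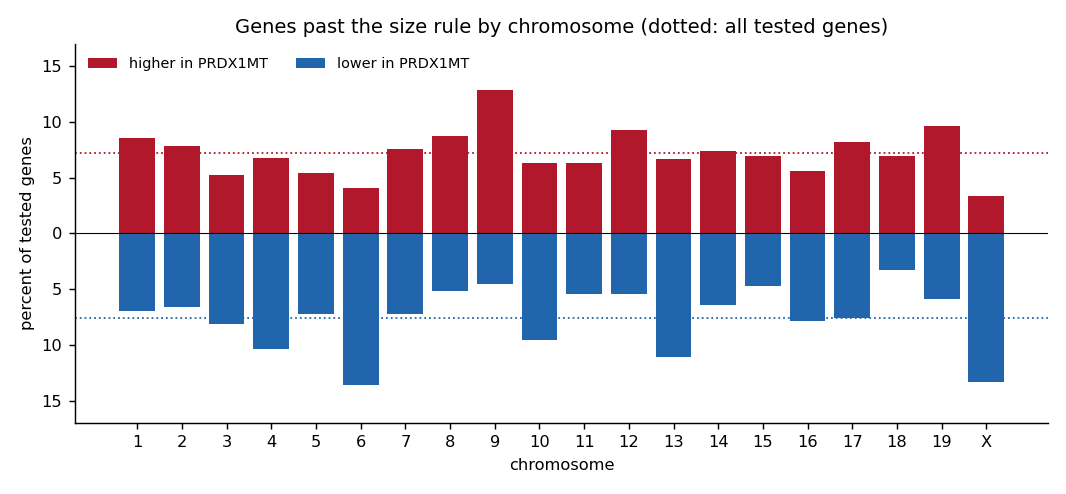
Share of the genes examined on each nuclear chromosome (x axis) that were higher (red, upwards) or lower (blue, downwards) in PRDX1MT by the size rule, in percent. Dotted lines mark the shares over all genes. Among these, chromosomes 6 and X have the largest shares of lower genes, 13.6% and 13.3%, and chromosome 9 the largest share of higher genes, 12.9%.

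Set beside all 3 other libraries, PRDX1MT stood at least 2-fold above every one of them for 278 of 14473 genes (1.92%) and 2-fold below for 228 (1.58%). The same counts were 304 and 211 for WT, 431 and 294 for DKO clone 1 and 189 and 404 for DKO clone 5. PRDX1MT was thus not the library that stood apart most often. The protein-coding genes farthest above the others in PRDX1MT included Fras1, Fxyd6, Fgf18, Inhbb, Slit3, Itga11 and Adcy1, an adenylate cyclase gene with 137 CPM in PRDX1MT, 24 CPM in WT and 0.869 and 1.67 CPM in the DKO clones. Pawr, a pro-apoptotic gene, had 55.1 CPM in PRDX1MT and 6.24 CPM in WT, with 5.63 and 0.69 CPM in the DKO clones. Among those farthest below were Stmn2, Casd1, Rgs4 and Angptl1, a secreted angiopoietin-like protein, which had 2 reads in PRDX1MT, 551 in WT and 4887 and 241 in the DKO clones. Angptl4, an inhibitor of lipoprotein lipase, had 0 CPM in PRDX1MT, 2.38 CPM in WT and 13.6 and 3.7 CPM in the DKO clones.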

How the data were processed

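The libraries were strand-marking preparations of total RNA from which ribosomal RNA had been depleted, per the labels' protocols. The submitters' processing notes name STAR 2.6.1d and the mm10 build. Which program and annotation gave the counts, and with which strand setting, is not given in the sources used here. Each deposited table holds raw whole-number read counts per Ensembl gene ID, as the authors made them, for 1 library (27570136 to 37685798 counts). Of 54532 gene IDs, 54495 have an entry in GENCODE M21 (GRCm38/mm10). Symbols, biotypes and positions were taken from it.

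CPM and log2 ratios of PRDX1MT over WT used TMM factors from all 4 libraries (edgeR 4.0.16, R 4.3.3, prior count 2). Genes needed 100 reads in both libraries together. Ratios have 95% conditional exact binomial (Clopper-Pearson) intervals. Folds are ratios of CPM, and a fold against 0 reads is a bound against 3 counts in that library. With 1 library a side nothing was tested. On Poisson counts simulated for this comparison (12704 genes past the minimum), 95.2% of intervals held the true ratio. The size rule called 98 of 98 genes changed by a log2 ratio of 2, 98 of 98 changed by 3, and 0 unchanged genes. These simulated counts held counting error alone, and changes near the 2-fold limit were not tried. The result checks the calculation only and gives no rate of false calls between cultures or clones. Gene lists (60) are described by counts and medians. Alternatives were other scalings (DESeq2 1.42.0 size factors, total counts, TMM on the 2 libraries, on protein-coding genes, or without structural and mitochondrial RNA), prior counts, read minimums and ratio limits.

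Named genes are, among protein-coding genes past the rule, the 15 largest rises and 15 largest falls, the 10 largest differences per kilobase each way, up to 4 members per list by ratio (or 1 where none passed), 10 non-coding genes, and Prdx1, Mmachc and Ccdc163; some of these are not reported here. Lists and their members were chosen with earlier results of these data known. Genes outside the rule were chosen after their values were seen: Mgmt, Phyh, Fosb, Fos, Jun, Myc, Dusp1, Dusp6, Egr2, Zfp36, Btg2, Ccn2, Tgfb1, Tgfb2, Tgfb3, Tgfbr1, Tgfbr2, Col1a1, Col2a1, Col4a1, Col4a2, Col9a1, Col9a3, Sox6, Sox9, Notch1, Notch2, Notch3, Grem1, Ror2, Fzd4, Fzd5, Fzd7, Pdgfb, Pdgfra, Pappa, Irs1, Irs2, Igf2bp3, Slit2, Meg3, Gnas, Prdx2 to Prdx6, Hmox1, Gclm, Gclc, Mir322, Mir23a, Mir27a, Mir23b, Adcy1, Pawr, Angptl1, Angptl4 and the markers.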

Additional observations from a re-analysis of the deposited data

How the results depend on the processing

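With total counts as the scale, 544 genes were higher and 1734 lower in PRDX1MT and the median log2 ratio was -0.31, in place of 920, 961 and -0.04; the cause was not tested. The other 4 scalings and both prior counts kept these counts within 1.5 times. A minimum of 20 reads gave 1855 higher and 1758 lower, a minimum of 500 reads 463 and 450, and no minimum 2592 and 2112. A log2 ratio of at least 1.5 left 374 higher and 420 lower, and with the whole interval beyond 1 there were 627 higher and 568 lower. Of the 50 genes near 0 in PRDX1MT, 20 were at 0 reads and 10 had at least 500 reads in WT. List medians moved beyond the counting error in 71 of 537 comparisons and log2 ratios of named genes in 104 of 1568, with 0 named calls reversed. The medians of 15 lists changed sign or came to 0.00 under another scaling. No paired analysis was possible because each of the groups compared has 1 library. Depth limits the low genes: 3 counts were worth 0.1205 CPM in PRDX1MT and 0.0729 CPM in WT.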
